A study of Mus musculus with 16 samples.

Results

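The mitosis and spindle genes described here are 54 of the 24063 genes of the study's RNA-seq tables, taken by symbol from a list of mitotic cyclins and kinases, spindle checkpoint, kinetochore, kinesin, cytokinesis and condensin genes. All 54 were found in both tables, and all 54 passed the filters on low values in both. RNA came from AtT-20 cells, a mouse pituitary tumour line of corticotroph type that makes pro-opiomelanocortin and divides in culture. The question of the design is what changes when these cells make Pax7, a transcription factor of the pituitary melanotrope. In a first system, cells expressing 3x flag-Neo were the controls (2 libraries) for cells expressing 3x flag-Pax7 (2 libraries), both untreated. In the second system, cells expressing 3x flag-ER-Pax7, a fusion that 4-hydroxytamoxifen activates, were sequenced before induction (0 h) and after 12, 24 and 96 h of it, 3 libraries per time point. All cells were at passages 10 to 20, grown in the same medium, and all 4 ER-Pax7 groups carried the fusion. Neo and Pax7 cells are 1 pair of populations, so Pax7 and any other difference between them cannot be told apart. Cells without the fusion but with 4-hydroxytamoxifen were not analysed here, so the compound, the hours in culture and the active fusion cannot be told apart either. No label says that replicates were grown apart, and the p-values then reflect only library-to-library spread, which may be technical.

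A cell enters mitosis when cyclin B and Cdk1 become active, with the help of Cdc25 phosphatases and of Plk1 and Aurora kinases. Condensin and topoisomerase II then compact and untangle the chromosomes, kinesins build the spindle, and the kinetochore ties each chromosome to it. The spindle checkpoint holds the anaphase-promoting complex (APC/C) back until every chromosome is attached, after which Cdc20 activates it, securin and cyclin B are destroyed, and the cell divides. Most of these transcripts are made in G2 and M phase and are low in cells that do not divide, and the DREAM complex and the MuvB, B-Myb and FoxM1 proteins act on many of their promoters through a cell cycle homology region (CHR, letters TTTGAA) near the start and through CCAAT boxes bound by NF-Y.

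Promoter letters are shown for 5 members chosen from the results: Top2a and Mki67, the marks of dividing cells, Ccnb2, which was lower in both systems, and Hmmr and Cdc25b. The last 2 had log2 folds of opposite sign in the 2 systems. Their positive folds, 0.07 for Hmmr at 96 h and 0.06 for Cdc25b in Pax7 cells, were not called at adjusted p under 0.05 (limma). Each is the 150 bases just before the start of the gene, 5′ to 3′ on its own strand, from RefSeq on GRCm38.p6 (mm10). Capitals mark TTTGAA or its complement TTCAAA and CCAAT or its complement ATTGG. The positions are chr11:99024190-99024339 for Top2a, chr7:135716380-135716529 for Mki67, chr9:70421555-70421704 for Ccnb2 and chr11:40733438-40733587 for Hmmr, all on the minus strand, and chr2:131186798-131186947 for Cdc25b on the plus strand.
Top2a: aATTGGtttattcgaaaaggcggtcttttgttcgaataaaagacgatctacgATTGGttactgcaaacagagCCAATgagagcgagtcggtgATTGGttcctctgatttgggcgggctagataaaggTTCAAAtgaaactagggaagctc
Mki67: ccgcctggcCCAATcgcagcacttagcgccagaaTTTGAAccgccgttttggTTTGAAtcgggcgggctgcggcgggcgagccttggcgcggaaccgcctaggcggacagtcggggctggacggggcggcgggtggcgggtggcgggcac
Ccnb2: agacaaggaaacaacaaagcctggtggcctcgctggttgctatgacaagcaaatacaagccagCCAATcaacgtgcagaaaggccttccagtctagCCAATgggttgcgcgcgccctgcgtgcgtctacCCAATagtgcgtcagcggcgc
Hmmr: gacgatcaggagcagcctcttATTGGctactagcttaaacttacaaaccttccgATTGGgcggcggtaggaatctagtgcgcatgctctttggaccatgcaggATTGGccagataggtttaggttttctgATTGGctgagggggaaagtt
Cdc25b: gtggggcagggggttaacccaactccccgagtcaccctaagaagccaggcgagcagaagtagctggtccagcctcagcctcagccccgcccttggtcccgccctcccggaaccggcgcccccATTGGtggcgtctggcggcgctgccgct
Top2a and Hmmr have 4 CCAAT letters each in this stretch, Ccnb2 has 3, and Mki67 and Cdc25b have 1. In the printed stretch, TTTGAA stands at 1 place in Top2a and at 2 places in Mki67; Ccnb2 and Hmmr hold it elsewhere in the 300-base window described next, and the window of Cdc25b does not hold it.

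In windows from 250 bases before to 50 after the start, 44 members had a RefSeq sequence. TTTGAA was found on either strand in 32 of the 44 (72.7%), against 10.9% of the 9296 genes that were tested in both tables and had a window. CCAAT was found in 33 (75%), against 39.2%, and both kinds of letters in 29 (65.9%), against 4.81%. E2F-like letters (TTTCCCGC, TTTGGCGC, TTTCGCGC or TTTGCCGC) were found in 4 members (9.09%), against 4.28%. These are counts of letters, not of bound sites. Among the members, 8 had neither TTTGAA nor CCAAT in the window: Birc5, Kif18a, Mad2l1, Mybl2, Ncaph, Nuf2, Nusap1 and Pttg1. Aurkb, Ccna2, Cdc25c, Foxm1, Incenp, Kif20a, Kif2c, Smc4, Spc24 and Tpx2 had no window.

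Exon reads numbered 61.4 M to 88.7 M in the 12 ER-Pax7 libraries; for the other 4 libraries the depth was estimated at 44.6 M to 55.0 M reads. The first are given as exon reads scaled to a common total, and the second as FPKM over whole gene bodies, introns included. Levels therefore cannot be set against each other across the tables, and every test stayed within its table. Values of the members are divided by a scaling factor per library (TMM), while those in the rest of this paragraph are as deposited. Pax7 was at 0 to 0.01 FPKM in Neo and 2.38 to 2.39 FPKM in Pax7 libraries, and at 1653 to 1911 scaled exon reads in the ER-Pax7 libraries, as labelled. Of 6 corticotrope markers, Pomc, Tbx19, Neurod1, Pitx1 and Nr3c1 were clearly present in both tables, and Crhr1 was low (0.05 to 0.12 FPKM). The corticotrope sum, nearly all of it Pomc, was 2427 to 2504 FPKM in Neo and 2422 to 2479 FPKM in Pax7 cells. Of its 6 genes, 4 were called lower in Pax7 cells, where 18.2% of all genes were called lower and 18.5% higher. The limma log2 folds were −0.54 for Nr3c1, −0.55 for Crhr1, −0.23 for Pitx1 and −0.20 for Neurod1. Crhr1 passed the filter of 0.1 FPKM in 2 libraries only through the Neo libraries, where it was higher. Its call is therefore tied to that filter. Pomc (−0.08) and Tbx19 (0.13) were not called. At 96 h Crhr1 (−0.54) and Nr3c1 (−0.26) were called lower, Neurod1 (0.30), Pitx1 (0.25) and Tbx19 (0.28) higher, and Pomc (−0.03) was not called. Of all genes, 17.4% were called lower and 16.3% higher at 96 h. In ER-Pax7 cells the sum was 95415 to 100416 scaled exon reads at 0 h, 85777 to 90525 at 12 h, 79500 to 81481 at 24 h and 93650 to 101033 at 96 h. The 6 fibroblast markers summed to at most 0.30 FPKM and 5 endothelial ones to at most 0.05 FPKM. The 6 immune markers summed to 0.89 to 0.91 FPKM in Neo and 0.58 to 0.70 FPKM in Pax7 cells, where Lyz2 was called lower (−1.26) and Cd68 higher (0.77). The part of these shifts in the results below was not tested. Col3a1, Dcn, Cd3e and Cdh5 were listed at 0 FPKM in the 4 Neo and Pax7 libraries, and in the ER-Pax7 libraries Cd3e was at 0 and the others at no more than 0.23 scaled exon reads. The 12 h library of replicate 2 had 2.35% of its reads on the ribosomal gene Rn45s, against 0.753% to 1.26% in the other 11.

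Per kilobase of exon, the members were mostly transcripts of high level before induction: their median was 341 scaled exon reads per kb at 0 h, against 66.1 for all 15188 genes tested. Top2a, the topoisomerase that untangles sister chromatids, had the highest level of the 54 at 2475 ± 37.8 (SD, n = 3), followed by the condensin subunit Smc4 at 904 ± 42.2 and the checkpoint protein Bub3 at 809 ± 33.8. The lowest levels were those of the transcription factor Foxm1 at 29.4 ± 0.749 and of separase, Espl1, at 55.3 ± 1.96, both below the median of all genes tested. No member had fewer than 1071 reads in an ER-Pax7 library or an estimated 763 in a Neo or Pax7 library.

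Constitutive Pax7 went with lower transcripts across nearly the whole group. Of the 54 genes, 48 were called lower in Pax7 than in Neo cells and 0 higher (limma, adjusted p under 0.05), where 36.7% of all 13393 genes tested were called, 18.2% lower and 18.5% higher. The median log2 fold of the members was −0.31, a level 19.3% lower, against 0.01 for all genes tested, and single members ran from −0.60 (Top2a) to 0.06 (Cdc25b). Both Pax7 libraries lay below both Neo libraries in 52 members, where 36.1% of all genes did so. Both lay above in Cdc25b alone (37.8% of all genes), and the libraries overlapped in Foxm1 alone. The 6 members not called were Cdc25b, Cenpe, Ndc80, Kif4, Kif18a and Foxm1. In bulk RNA, fewer cells in mitosis and less of these transcripts per mitotic cell cannot be told apart.

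The number of calls depended on single libraries. Without Pax7 replicate 1, 27 members were called lower, without Pax7 replicate 2, 26, and 24 kept the call without each of the 4 libraries in turn. These 24 were Top2a, Ccna2, Ccnb1, Ccnb2, Cdca3, Aurka, Aurkb, Incenp, Cdca8, Bub1b, Mad2l1, Cdc20, Ube2c, Pttg1, Cenpa, Kif11, Kif23, Kif22, Prc1, Nusap1, Anln, Racgap1, Ncaph and Smc4. With libraries scaled to their totals in place of TMM, 30 members were called lower, their median log2 fold was −0.24 and that of all genes 0.07; of all genes called, 67.8% were then higher, against 50.5% with TMM. Under both scalings 53 of the 54 log2 folds were below 0. In the authors' deposited log2 folds for Neo against Pax7, 44 of the 54 were below 0, with a median of −0.39.

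**Figure D1:**
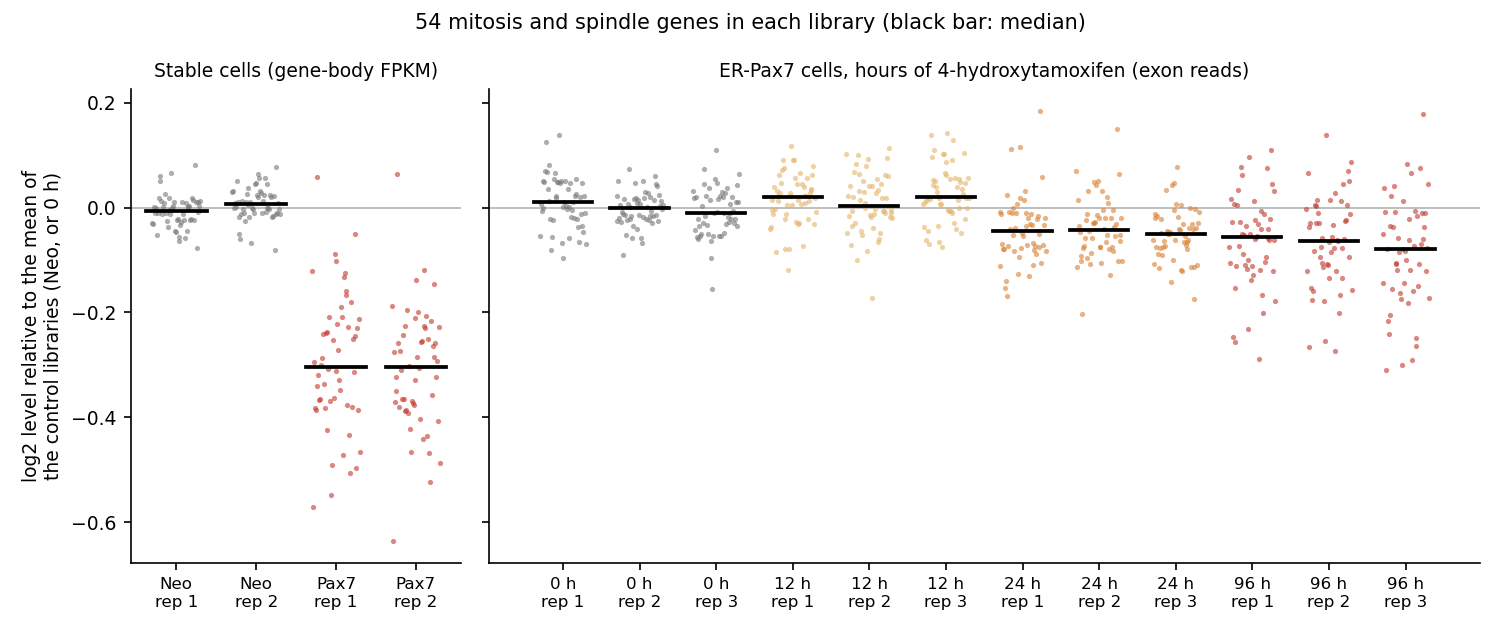
Log2 level of each of the 54 genes (points) in each library relative to the mean of the control libraries of its table (Neo on the left, ER-Pax7 at 0 h on the right), with the median as a black bar. The medians of the Pax7 libraries are both −0.30, those of the 12 h libraries lie between 0.00 and 0.02, those at 24 h between −0.05 and −0.04 and those at 96 h between −0.08 and −0.06.

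After induction of ER-Pax7 the log2 folds of the same genes were nearer to 0. At 12 h against 0 h, 0 of 54 were called (6.49% of all 15188 genes were, 3.71% lower and 2.79% higher; 2 members had an unadjusted p under 0.05 with limma, and edgeR and DESeq2 on recovered reads also called 0), and the median log2 fold was 0.02. The 12 h libraries lay below all 0 h libraries in 2 members (11.3% of all genes) and above them in 3 (9.03%). At 24 h, 3 were called lower, Top2a, Cdc25b and Kif23, each at −0.11, and 0 higher, where 13.5% of all genes were called, 8.07% lower and 5.47% higher. The 24 h libraries lay below all 0 h libraries in 16 members (15.4% of all genes) and above them in 0 (12.7%). None of the 3 calls held without each library in turn, and with library totals or with only the 0 h and 24 h libraries in the fit 0 remained. At 96 h, 19 members were called lower and 0 higher, where 33.7% of all genes were called, 17.4% lower and 16.3% higher. The median log2 fold at 96 h was −0.06, a level 4.24% lower, against 0.00 for all genes, with single members between −0.28 (Kif23) and 0.08 (Espl1). The 96 h libraries lay below all 0 h libraries in 27 members (23.2% of all genes) and above them in 2, Hmmr and Smc2 (22.7%).

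The 19 members called lower at 96 h were Top2a, Ccnb2, Cdc25b, Cdc25c, Cdca3, Bub1b, Cdc20, Ube2c, Pttg1, Cenpe, Ndc80, Kif23, Kif2c, Kif18a, Kif22, Prc1, Nusap1, Ncapg and Smc4. Without each of the 6 libraries in turn, 11 kept the call: Top2a, Ccnb2, Cdc25b, Cdc25c, Cdca3, Pttg1, Kif23, Kif2c, Kif18a, Kif22 and Smc4. The other 8 each lost it without at least 1 library: Cdc20 without 96 h replicate 3, Ndc80 and Nusap1 without 96 h replicate 2, Prc1 without 0 h replicate 1 or 96 h replicate 3, Ncapg without 0 h replicate 3, 96 h replicate 1 or 96 h replicate 3, and Bub1b, Ube2c and Cenpe as given with their values. Between 13 and 19 members were called with a library left out. In the authors' deposited table, 14 of the 54 are lower at 96 h at an FDR under 0.05, all among these 19. Of all 24063 genes, 2784 pass it at 96 h. For Neo against Pax7, 0 of the 54 pass it, where 24 genes in all pass.

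The later steps of the course were compared directly, in tests that share libraries with those above. From 12 h to 24 h, 52 of 54 log2 folds were below 0 with a median of −0.06, and 0 members were called (0.171% of all genes were, 0.0988% lower and 0.0724% higher; 19 members had an unadjusted p under 0.05 with limma, and edgeR and DESeq2 called 0). The 24 h libraries lay below all 12 h libraries in 21 members (6.70% of all genes) and above them in 0 (6.43%). From 24 h to 96 h, 12.7% of all genes were called, and 5 members were called lower, where 6.54% of all genes were: Ccnb2 (−0.21), Pttg1 (−0.24), Cenpe (−0.12), Kif23 (−0.18) and Kif18a (−0.12). Mybl2 alone was called higher in that step (0.17), where 6.16% of all genes were. The 96 h libraries lay below all 24 h libraries in 15 members (14.9% of all genes) and above them in 7 (15.7%). Without 24 h replicate 2, 24 h replicate 3, 96 h replicate 2 or 96 h replicate 3, 3 members were called lower, and Ccnb2, Pttg1 and Kif23 kept the call without each library. Mybl2 lost its call without 24 h replicate 3, 96 h replicate 1 or 96 h replicate 2.

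**Figure D2:**
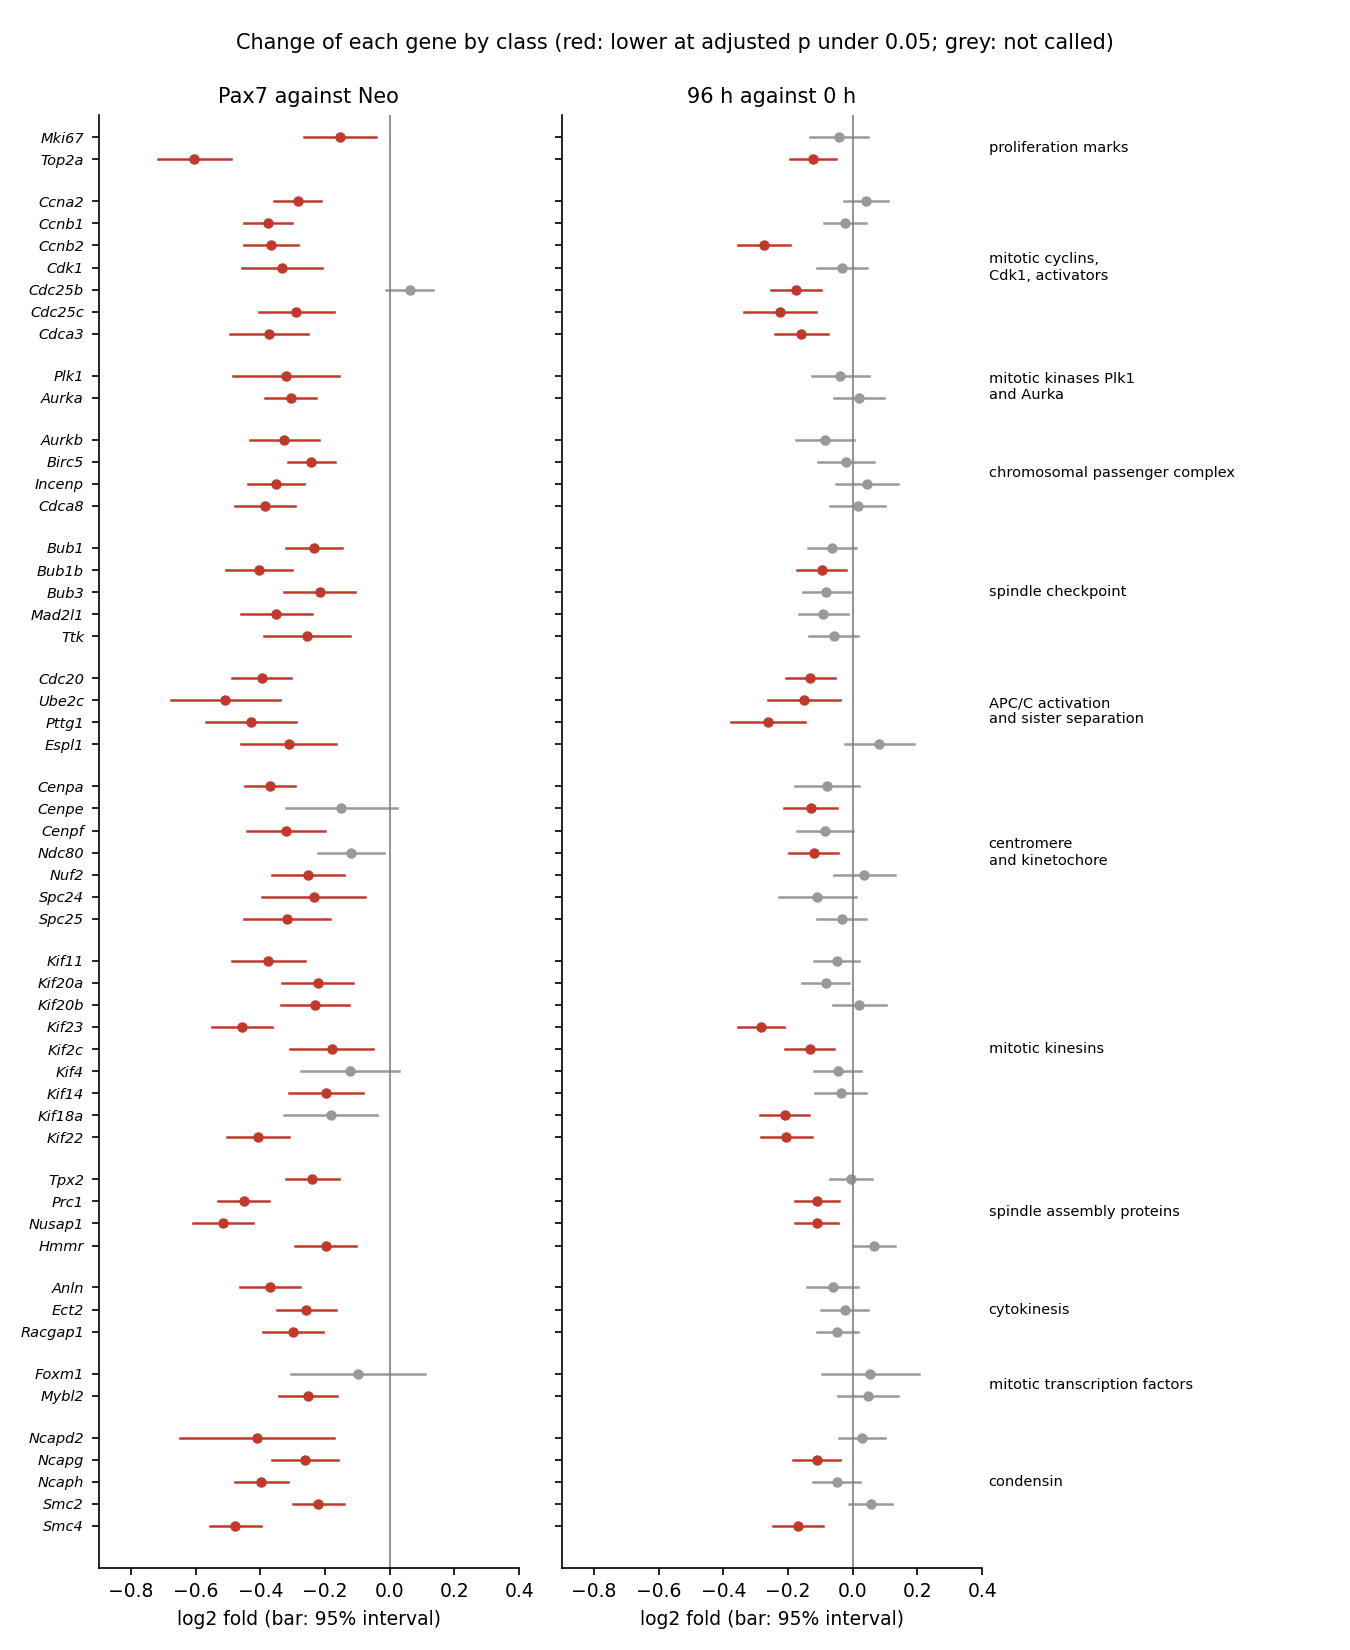
Log2 fold of each gene with its 95% interval (limma), Pax7 against Neo on the left and ER-Pax7 at 96 h against 0 h on the right, grouped by class; red marks genes called lower and grey genes not called. On the left 48 of 54 are red, from −0.60 for Top2a, and on the right 19 are, from −0.28 for Kif23.

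Both marks of proliferation were called lower in Pax7 cells, and Top2a alone of the pair at 96 h; the difference between them was not tested. Top2a (NM_011623, chromosome 11, 98992947 to 99024189) stood at 52.1 and 54.4 FPKM in Neo cells and at 35.8 and 34.2 FPKM with Pax7. Both Pax7 values lay well below both Neo values, a log2 fold of −0.60 (SE 0.04; limma, adjusted p = 0.00391), or a level 34.2% lower. The ER-Pax7 course gave Top2a 12883, 12600 and 12975 scaled exon reads at 0 h, 12493, 12399 and 12498 at 12 h, 11863, 11844 and 11892 at 24 h and 11910, 11783 and 11599 at 96 h. The 24 h and 96 h libraries all lay below all earlier ones, and the log2 fold was −0.11 at 24 h (limma, adjusted p = 0.0337) and −0.12 at 96 h (SE 0.03; limma, adjusted p = 0.00790). Mki67 (NM_001081117, chromosome 7, 135689788 to 135716379), which codes for the Ki-67 protein that coats mitotic chromosomes, stood at 23.3 and 24.2 FPKM in Neo cells and at 21.8 and 20.9 FPKM with Pax7. Its log2 fold of −0.15 (SE 0.04; limma, adjusted p = 0.0495) was just inside the threshold, and it was −0.08 with library totals (adjusted p = 0.295) and lost its call without any 1 of the 4 libraries. At 0 h Mki67 had 6911, 7291 and 7337 scaled exon reads and 6816, 7162 and 6934 at 96 h. These groups overlapped, and it was not called (log2 fold −0.04; limma, adjusted p = 0.483).

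Of the 7 mitotic cyclins, Cdk1 and its activators, 6 were lower in Pax7 cells, all but Cdc25b, and 4 at 96 h: Ccnb2, Cdc25b, Cdc25c and Cdca3. Over all genes, 18.2% and 17.4% were called lower in these comparisons. Ccnb1, cyclin B1, stood at 14.4 and 14.6 FPKM in Neo cells and at 11.1 and 11.2 FPKM with Pax7, and Ccnb2, cyclin B2, read 5.81 and 5.81 FPKM against 4.42 and 4.53. For both cyclins the 2 groups lay far apart relative to their spread (log2 folds −0.38 and −0.37, SE 0.03 each; limma, adjusted p = 0.00416 and 0.00507). Over the ER-Pax7 course Ccnb2 was called and Ccnb1 was not. Ccnb2 read 731, 708 and 678 scaled exon reads at 0 h, 700, 726 and 676 at 12 h, 667, 683 and 670 at 24 h and 594, 587 and 569 at 96 h. All 3 of the 96 h libraries lay below all others, a log2 fold of −0.27 (SE 0.04; limma, adjusted p = 1.05e-05). Ccnb1 read 1085, 1072 and 1101 scaled exon reads at 0 h and 1065, 1059 and 1079 at 96 h, overlapping groups with a log2 fold of −0.02 and a 95% interval from −0.09 to 0.04 (limma, adjusted p = 0.599).

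Cdk1, the kinase that both cyclins activate, was lower in Pax7 cells (log2 fold −0.33) and not called at 96 h (−0.03), and Ccna2, cyclin A2, likewise (−0.28 and 0.04). Cdc25b, a phosphatase that switches Cdk1 on, went the other way from the rest of its class in Pax7 cells. It stood at 12.6 and 12.8 FPKM in Neo cells and at 13.2 and 13.3 FPKM with Pax7, a log2 fold of 0.06 that was not called (limma, adjusted p = 0.146). At 96 h it was called lower, with 1115, 1056 and 1019 scaled exon reads at 0 h and 956, 955 and 914 at 96 h (log2 fold −0.17; limma, adjusted p = 0.00103). Its relative Cdc25c was lower in both (−0.29 and −0.22), as was Cdca3, which helps degrade the Cdk1 inhibitor Wee1 (−0.37 and −0.16).

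The mitotic kinases Plk1 and Aurka were lower in Pax7 cells and not called at 96 h. Among all genes tested, 18.2% were called lower in Pax7 cells and 17.4% at 96 h. Plk1, which acts at centrosomes and kinetochores, stood at 6.34 and 5.83 FPKM in Neo cells and at 4.70 and 5.01 FPKM with Pax7. The groups did not overlap, though each varied more than most members (log2 fold −0.32, SE 0.06; limma, adjusted p = 0.0229), and the call was lost with library totals and without Neo replicate 1, Pax7 replicate 1 or Pax7 replicate 2 (adjusted p up to 0.0897). Before induction of the fusion, 467, 461 and 440 scaled exon reads were found for Plk1, and 457, 430 and 445 at 96 h (log2 fold −0.04; limma, adjusted p = 0.528). Aurka, Aurora A, the kinase of the spindle poles, had log2 folds of −0.31 and 0.02.

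All 4 genes of the chromosomal passenger complex, which corrects wrong attachments of chromosomes to the spindle, were lower in Pax7 cells, and 0 were called at 96 h. The shares of all genes called lower were 18.2% in Pax7 cells and 17.4% at 96 h. Cdca8, which codes for its borealin subunit, stood at 5.29 and 5.10 FPKM in Neo cells and at 3.96 and 3.95 FPKM with Pax7 (log2 fold −0.39, SE 0.03; limma, adjusted p = 0.00535). Aurkb, the Aurora B kinase of the complex, read 15.3 and 15.5 FPKM against 12.6 and 11.9 (log2 fold −0.33). Neither was called at 96 h: Cdca8 read 603, 660 and 620 scaled exon reads at 0 h and 655, 623 and 624 at 96 h, a log2 fold of 0.01, and Aurkb read 574, 524 and 532 against 516, 532 and 487, a log2 fold of −0.09 (limma, adjusted p = 0.132). Incenp, the scaffold of the complex, and Birc5, survivin, were at −0.35 and −0.24 in Pax7 cells and at 0.04 and −0.02 at 96 h.

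The 5 spindle checkpoint genes were all lower in Pax7 cells, where 18.2% of all genes were called lower. Their log2 folds ran from −0.22 (Bub3) to −0.41 (Bub1b). Bub1b, which codes for the checkpoint kinase-like protein BubR1, stood at 3.59 and 3.72 FPKM in Neo cells and at 2.70 and 2.77 FPKM with Pax7 (SE 0.04; limma, adjusted p = 0.00590). At 96 h Bub1b alone of the 5 was called lower, near the share over all genes (17.4%). It read 1282, 1217 and 1207 scaled exon reads at 0 h and 1162, 1156 and 1147 at 96 h. The groups did not overlap, but the log2 fold of −0.10 (SE 0.04; limma, adjusted p = 0.0433) lost its call with library totals and without any 1 of 5 of the 6 libraries (all but 0 h replicate 3; adjusted p up to 0.175). Bub1, Bub3, Mad2l1 and Ttk were at −0.06 to −0.09 at 96 h and not called, with the groups not overlapping in Bub1, Bub3 and Ttk.

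The genes of APC/C activation and sister separation had the lowest class median in Pax7 cells, −0.41, and a median of −0.14 at 96 h. Cdc20, the mitotic activator of the APC/C, Ube2c, the enzyme that brings it ubiquitin, Pttg1, which codes for securin, and Espl1, which codes for separase, were all lower in Pax7 cells. Cdc20, Ube2c and Pttg1 were called lower at 96 h. In these comparisons 18.2% and 17.4% of all genes were called lower. Ube2c stood at 25.8 and 23.5 FPKM in Neo cells and at 16.8 and 17.8 FPKM with Pax7, a log2 fold of −0.51 (SE 0.06; limma, adjusted p = 0.00949). At 96 h Ube2c was at −0.15 (limma, adjusted p = 0.0325), a call lost without 0 h replicate 1, 0 h replicate 2, 96 h replicate 2 or 96 h replicate 3 (adjusted p up to 0.123). Pttg1 read 11.2 and 11.2 FPKM against 7.92 and 8.63 (log2 fold −0.43, SE 0.05; limma, adjusted p = 0.00901). The ER-Pax7 course gave Pttg1 682, 627 and 555 scaled exon reads at 0 h, 586, 623 and 588 at 12 h, 580, 607 and 638 at 24 h and 527, 519 and 503 at 96 h. The 0 h libraries were spread widely, yet all 3 of the 96 h values lay below all 9 earlier ones (log2 fold −0.26, SE 0.05; limma, adjusted p = 0.000927). Cdc20 fell by 0.40 in Pax7 cells and by 0.13 at 96 h, whereas Espl1 was at −0.31 and, at 96 h, at 0.08 with a 95% interval from −0.02 to 0.19.

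Of 7 centromere and kinetochore genes, 5 were lower in Pax7 cells, Cenpa, Cenpf, Nuf2, Spc24 and Spc25, and the other 2, Cenpe and Ndc80, were the 2 called lower at 96 h. The shares called lower over all genes were 18.2% in Pax7 cells and 17.4% at 96 h. Cenpa, the histone H3 variant that marks the centromere, stood at 8.34 and 8.21 FPKM in Neo cells and at 6.41 and 6.34 FPKM with Pax7 (log2 fold −0.37, SE 0.03; limma, adjusted p = 0.00460), and was at −0.08 at 96 h (adjusted p = 0.220). Cenpe, a kinesin of the kinetochore, read 1.56 and 1.67 FPKM against 1.51 and 1.38, close groups with a log2 fold of −0.15 (SE 0.06; limma, adjusted p = 0.135). At 0 h Cenpe had 1137, 1204 and 1238 scaled exon reads, 1210, 1272 and 1249 at 12 h, 1130, 1235 and 1189 at 24 h and 1084, 1106 and 1079 at 96 h. Its 96 h libraries lay below all others (log2 fold −0.13, SE 0.04; limma, adjusted p = 0.0132), though the call was lost without 0 h replicate 3 or 96 h replicate 3 (adjusted p up to 0.0717). Ndc80 and Nuf2 code for partners in the complex that holds microtubules, and their folds were unlike: −0.12 and −0.25 in Pax7 cells, −0.12 and 0.04 at 96 h; the difference between the 2 genes was not tested.

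Among 9 mitotic kinesins, 7 were lower in Pax7 cells (all but Kif4 and Kif18a) and 4 at 96 h (Kif23, Kif2c, Kif18a and Kif22). Over all genes, 18.2% were called lower in Pax7 cells and 17.4% at 96 h. Kif23, which bundles microtubules at the midzone for cytokinesis, had the largest fold of its class in both. It stood at 2.55 and 2.60 FPKM in Neo cells and at 1.83 and 1.87 FPKM with Pax7 (log2 fold −0.46, SE 0.03; limma, adjusted p = 0.00445). Before induction of the fusion, 698, 687 and 707 scaled exon reads were found for Kif23, and 683, 711 and 692 at 12 h, 637, 666 and 641 at 24 h and 570, 577 and 570 at 96 h. The 3 values at 24 h lay below all those before and above all those at 96 h, where the log2 fold was −0.28 (SE 0.03; limma, adjusted p = 1.62e-06), a level 17.9% lower. Kif22, which moves chromosome arms, was at −0.41 and −0.21, and Kif18a, which dampens chromosome movements, at −0.18 (not called; limma, adjusted p = 0.0613) and −0.21. Kif11, the motor that pushes the spindle poles apart, was at −0.38 in Pax7 cells and −0.05 at 96 h. Kif2c, which depolymerises microtubules at centromeres, passed narrowly in Pax7 cells (−0.18; limma, adjusted p = 0.0496) and lost that call without any 1 of the 4 libraries; Kif14 and Kif20b lost theirs likewise.

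**Figure D3:**
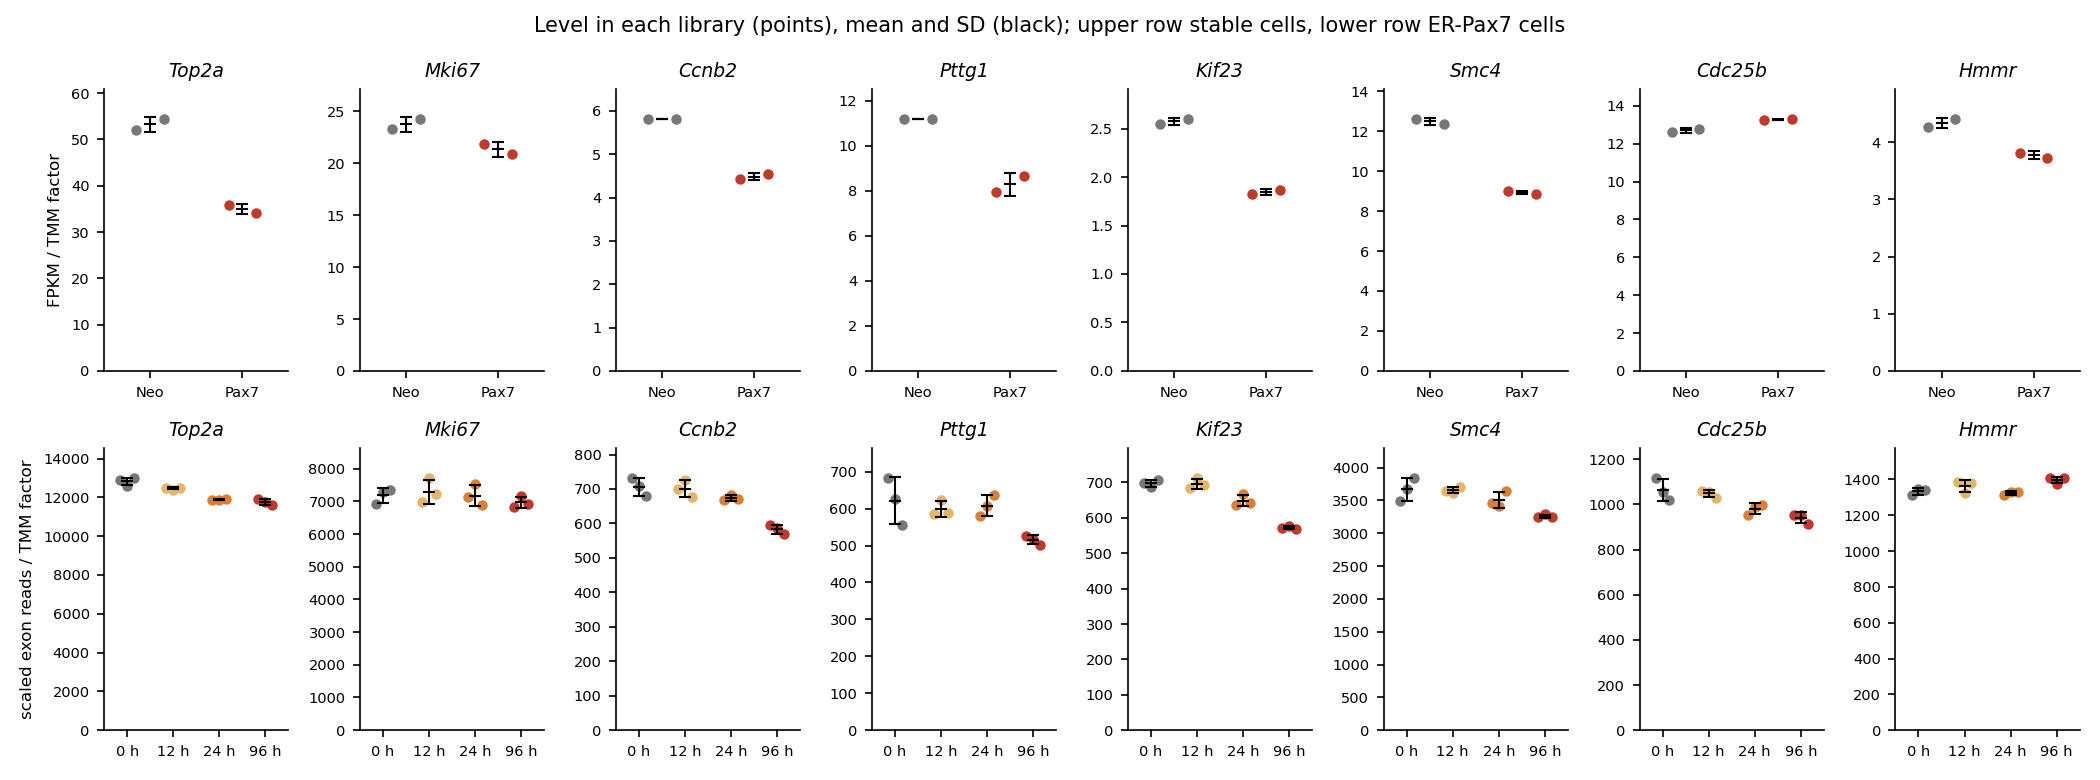
Level of 8 genes in every library (points) with the mean and SD (black), in FPKM for Neo and Pax7 (upper row) and in scaled exon reads for ER-Pax7 by hours of 4-hydroxytamoxifen (lower row), both divided by TMM factors and drawn from 0. Ccnb2, Pttg1 and Kif23 are lowest at 96 h, Top2a is lower from 24 h, and Hmmr is lower in Pax7 cells while its 96 h values are above those at 0 h.

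The 4 spindle assembly proteins were all lower in Pax7 cells, where 18.2% of all genes were called lower (17.4% at 96 h). Nusap1, which bundles microtubules near chromosomes, stood at 4.81 and 4.97 FPKM in Neo cells and at 3.42 and 3.37 FPKM with Pax7 (log2 fold −0.51, SE 0.03; limma, adjusted p = 0.00360), the largest difference after that of Top2a. The ER-Pax7 course gave Nusap1 1352, 1313 and 1318 scaled exon reads at 0 h and 1243, 1210 and 1232 at 96 h. The groups did not overlap (log2 fold −0.11; limma, adjusted p = 0.0103), and the call was lost without 96 h replicate 2 (adjusted p = 0.0570). Prc1, the midzone bundler that works with the Kif23 motor, was at −0.45 and −0.11, and Tpx2, which activates Aurora A on the spindle, at −0.24 and −0.00. Hmmr, a microtubule-binding protein of the spindle poles, was lower in Pax7 cells, with 4.27 and 4.4 FPKM in Neo and 3.82 and 3.72 FPKM in Pax7 libraries (log2 fold −0.20; limma, adjusted p = 0.0194). At 96 h its 1405, 1375 and 1405 scaled exon reads all lay above the 1312, 1346 and 1340 at 0 h (log2 fold 0.07; limma, adjusted p = 0.115, not called).

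The cytokinesis genes Anln, Ect2 and Racgap1, which build and position the contractile ring, were lower in Pax7 cells by −0.37, −0.26 and −0.30 on the log2 scale, and 0 of the 3 were called at 96 h. Of all genes, 18.2% were called lower in Pax7 cells and 17.4% at 96 h. Anln, anillin, stood at 2.93 and 2.86 FPKM in Neo cells and at 2.20 and 2.24 FPKM with Pax7 (SE 0.03; limma, adjusted p = 0.00589). At 0 h Anln had 1363, 1458 and 1378 scaled exon reads and 1345, 1343 and 1333 at 96 h, groups that just failed to overlap (log2 fold −0.06; limma, adjusted p = 0.225).

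Of the 2 transcription factors of mitotic genes, Mybl2 was called lower in Pax7 cells and Foxm1 in neither system. Calls of lower made up 18.2% of all genes in Pax7 cells and 17.4% at 96 h. Mybl2, B-Myb, stood at 2.24 and 2.20 FPKM in Neo cells and at 1.86 and 1.84 FPKM with Pax7 (log2 fold −0.25, SE 0.03; limma, adjusted p = 0.0109), a call lost with library totals and without Pax7 replicate 1 or Pax7 replicate 2 (adjusted p up to 0.0717). Before induction of the fusion, 402, 382 and 383 scaled exon reads were found for Mybl2, and 398, 405 and 383 at 12 h, 361, 363 and 345 at 24 h and 420, 408 and 379 at 96 h. It was lowest at 24 h and higher at 96 h than at 24 h (log2 fold 0.17; limma, adjusted p = 0.0118), with no call at 96 h against 0 h (0.05). Foxm1, the member of lowest level, stood at 1.32 and 1.17 FPKM in Neo cells and at 1.2 and 1.11 FPKM with Pax7, overlapping groups (log2 fold −0.10, 95% interval −0.30 to 0.11; limma, adjusted p = 0.359). At 96 h it read 126, 128 and 145 scaled exon reads against 127, 132 and 125 at 0 h (log2 fold 0.05; limma, adjusted p = 0.601).

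All 5 condensin genes, which code for the complex that compacts mitotic chromosomes, were lower in Pax7 cells, and Smc4 and Ncapg were called lower at 96 h. The shares over all genes were 18.2% lower in Pax7 cells and 17.4% lower at 96 h. Smc4, an ATPase of the complex, stood at 12.6 and 12.4 FPKM in Neo cells and at 9.0 and 8.88 FPKM with Pax7 (log2 fold −0.48, SE 0.03; limma, adjusted p = 0.00327). The ER-Pax7 course gave Smc4 3492, 3677 and 3834 scaled exon reads at 0 h, 3642, 3615 and 3710 at 12 h, 3459, 3415 and 3642 at 24 h and 3239, 3287 and 3252 at 96 h. All 3 values at 96 h were below all others (log2 fold −0.17, SE 0.04; limma, adjusted p = 0.00122). Smc2, its partner ATPase, was at −0.22 in Pax7 cells, and at 96 h its 3 libraries were above all 3 at 0 h, with a log2 fold of 0.05 that was not called (limma, adjusted p = 0.190). Ncapd2 was at −0.41 in Pax7 cells with the largest SE of the 54 (0.09) and at 0.03 at 96 h. The small RNA gene Scarna10 lies inside Ncapd2, and gene-body FPKM counts its reads in both: Scarna10 read 1577 FPKM in Neo and 1182 FPKM in Pax7 cells, the equal of 11.5% of the Ncapd2 reads, and its part in the Ncapd2 fold was not tested.

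Reads were counted without strand, and 12 members overlap another gene in the annotation. For Ccna2 (Exosc9), Kif20a (Cdc23), Nusap1 (Oip5), Cdc20 (Elovl1) and Ncapg (Lcorl) the partner lies on the opposite strand, so reads in the shared stretch cannot be told apart. The shared stretch is 19.3% of the Kif20a gene, 12.1% of Ccna2, 10.99% of Ncapg, 1.17% of Cdc20 and 0.653% of Nusap1. The span given for Mir3098 covers the whole of Cdc25b, and that for Mir680-2 covers 82.8% of Anln.

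The 2 systems share no library, so their folds for the members can be set side by side. Of the 48 members called lower in Pax7 cells, 15 were also called lower at 96 h (31.25% of the 48 and 78.9% of the 19). Since 48 of all 54 members were called lower in Pax7 cells, most of any 19 members would fall among them. The overlap therefore does not show that the systems share calls. The 4 called lower at 96 h alone were Cdc25b, Cenpe, Ndc80 and Kif18a, and Kif4 and Foxm1 were called in neither. In 51 members the absolute log2 fold was larger in Pax7 against Neo, although FPKM over gene bodies and exon reads are different measures. Across the 54 genes, which are not independent replicates, the folds correlated weakly (Pearson r = 0.24, Spearman rho = 0.28). Across the 12992 genes tested in both tables r was 0.53. The members' folds ran only from −0.60 to 0.06 in Pax7 cells and from −0.28 to 0.08 at 96 h. Those of 9252 other genes ran from −2.43 to 4.53 in Pax7 cells. A narrow range lowers r by itself, so the 2 values of r cannot be set against each other. Top2a, Nusap1 and Ube2c were lowest in Pax7 cells, and Kif23, Ccnb2 and Pttg1 were lowest at 96 h.

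**Figure D4:**
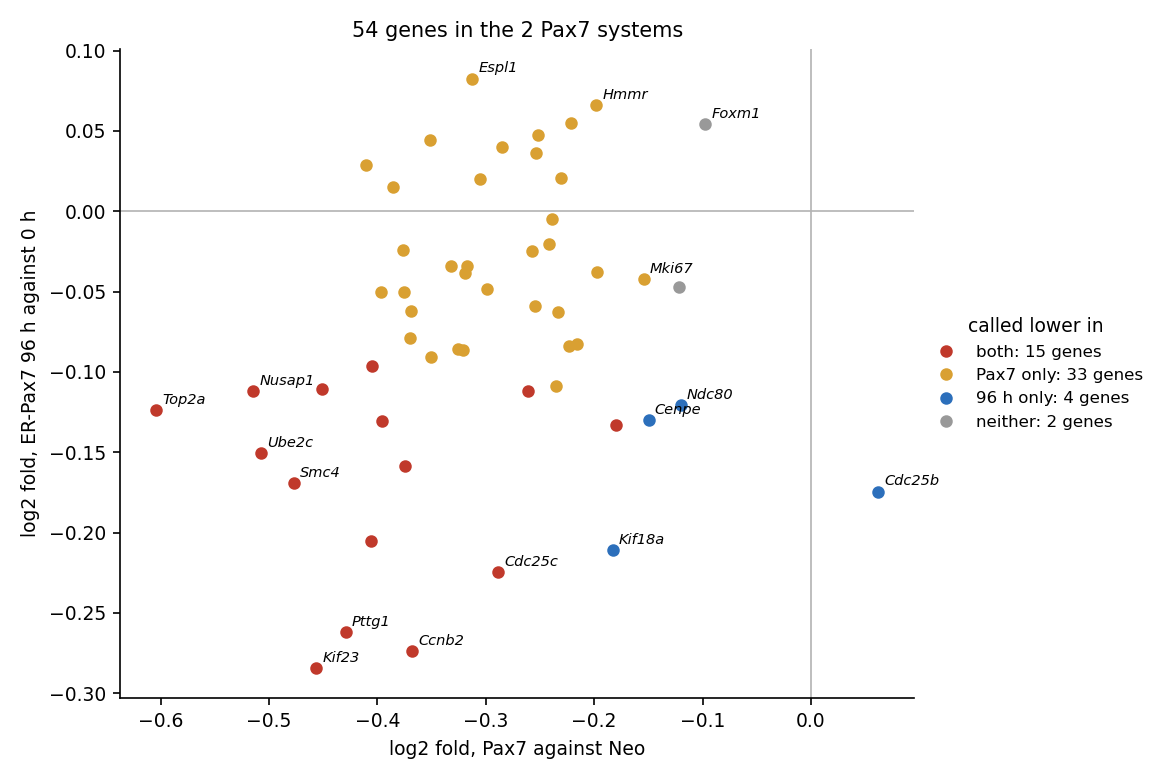
Log2 fold of the 54 genes in Pax7 against Neo (horizontal) and in ER-Pax7 at 96 h against 0 h (vertical), coloured by where the gene was called lower. The 15 genes lower in both lie at the lower left, Cdc25b is the one gene right of 0 on the horizontal axis, and 12 genes lie above 0 on the vertical axis.

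Members with and without these promoter letters were among those called lower. Among the 29 with both TTTGAA and CCAAT, 28 were called lower in Pax7 cells (median log2 fold −0.32) and 10 at 96 h (−0.05). Of the 15 with at most 1 kind, 11 were called lower in Pax7 cells (−0.25) and 6 at 96 h (−0.06), and of the 8 among them with neither kind, 7 (−0.30) and 3 (−0.07). Among 418 other genes with both kinds of letters in the window, 97 (23.2%) were called lower and 68 (16.3%) higher in Pax7 cells, with a median of −0.04, and 67 (16.0%) lower and 65 (15.6%) higher at 96 h. Over all 9252 other genes with a window, 18.3% were called lower and 19.7% higher in Pax7 cells, and 17.5% lower and 18.7% higher at 96 h. These are counts, and the difference between the groups of promoters was not tested.

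The other lists of mitotic genes held more lower than higher calls in Pax7 cells, where 18.2% of all genes were called lower and 18.5% higher. Of 16 other mitotic kinases and Cdk regulators, 9 were called lower and 0 higher (median −0.23), with the centrosome kinase Nek2 at −0.46 and the Cdk1 inhibitor Pkmyt1 at −0.44 (limma, adjusted p = 0.00528 and 0.00507). Of 26 other spindle and cytokinesis genes, 10 were lower and 1 higher (median −0.16), with Cep55 at −0.38 and Spag5 at −0.35 (limma, adjusted p = 0.00667 and 0.00715) and Numa1 at 0.20 (0.0162). Of 33 other kinetochore and centromere genes, 11 were lower and 1 higher (median −0.14), with Ska1 at −0.49 and Mis18a at −0.33 (limma, adjusted p = 0.00489 and 0.00533) and Zwint at 0.35 (0.00581). Of 16 APC/C core genes, 6 were lower, led by Anapc7 (−0.32) and Fzr1 (−0.35), and 2 higher, Anapc16 (0.23) and Anapc13 (0.16). Of 13 cohesin genes, 3 were lower (23.1%, near the share of all genes), Sgol2 (−0.31) and Cdca5 (−0.20) among them, and Stag2 was higher (0.18), and of 3 condensin II genes Ncapd3 was lower (−0.13).

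At 96 h, where 17.4% of all genes were called lower and 16.3% higher, these lists held calls in both directions. Of the other kinetochore genes, 1, Cenpb (−0.18), was lower and 4 higher, led by Dsn1 (0.28; limma, adjusted p = 7.27e-06) and Oip5 (0.19). Of the other spindle genes, 7 were lower, led by Kif24 (−0.32) and Depdc1a (−0.21), and 5 higher, led by Psrc1 (0.21) and Haus6 (0.18). Nek6 (−0.20) and Wee1 (−0.17) were lower and Cdc25a higher (0.13) among the kinases and Cdk regulators. Of the APC/C genes, Fzr1 (−0.21) and Anapc13 (−0.20) were lower and 3 higher, led by Cdc16 (0.15) and Anapc16 (0.21). Cohesin had 3 lower, led by Sgol2 (−0.19) and Stag1 (−0.16), and 2 higher, Cdca5 (0.18) and Stag2 (0.09), and Ncaph2 of condensin II was lower (−0.11).

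Of 27 G1/S and DNA replication genes, 5 were lower in Pax7 cells, led by the helicase subunits Mcm6 (−0.32) and Mcm7 (−0.29), and 5 higher, led by the cyclins Ccne2 (0.20) and Ccne1 (0.18), with a median of −0.02. That is 18.5% each way, the share over all genes (18.2% lower and 18.5% higher). At 96 h, 1 was lower, Tyms (−0.13), and 10 were higher, among them Mcm10 (0.28; limma, adjusted p = 3.11e-05), with a median of 0.06, where 17.4% of all genes were called lower and 16.3% higher. Among the MuvB, pocket protein, E2F and NF-Y genes, Nfyb, a subunit of the CCAAT-binding factor NF-Y, was called lower in Pax7 cells and at 96 h (−0.55 and −0.22), as was Rbbp4 (−0.28 and −0.10). Rbl1 was called lower at 96 h (−0.17) and not in Pax7 cells (−0.21). Rbl2 (0.30 and 0.20) and E2f6 (0.23 and 0.28) were called higher in both, and Lin54 was called higher at 96 h (0.18) and not in Pax7 cells (−0.06). In all, 3 of 20 tested were lower and 3 higher in Pax7 cells, and 3 of 21 lower and 6 higher at 96 h; the shares lower (15% and 14.3%) were below those of all genes.

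Of the CDK inhibitors and D cyclins with their kinases, Ccnd1, cyclin D1, which drives cells out of G1, was lower in Pax7 cells by a log2 fold of −1.27 (limma, adjusted p = 0.00458) and at 96 h of −0.77 (limma, adjusted p = 4.39e-06). Cdkn1b, which codes for the Cdk inhibitor p27, was higher in both (0.38 and 0.16; limma, adjusted p = 0.00600 and 0.00160). Cdkn1c (−0.39 in Pax7 cells, −0.19 at 96 h) and Cdkn2c (−0.16 and −0.26) were called lower in both. In all, 5 of 10 tested were lower and 1 higher in Pax7 cells, where 18.2% of all genes were called lower and 18.5% higher. At 96 h, 5 of 12 were lower and 1 higher, where 17.4% of all genes were called lower and 16.3% higher.

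**Figure D5:**
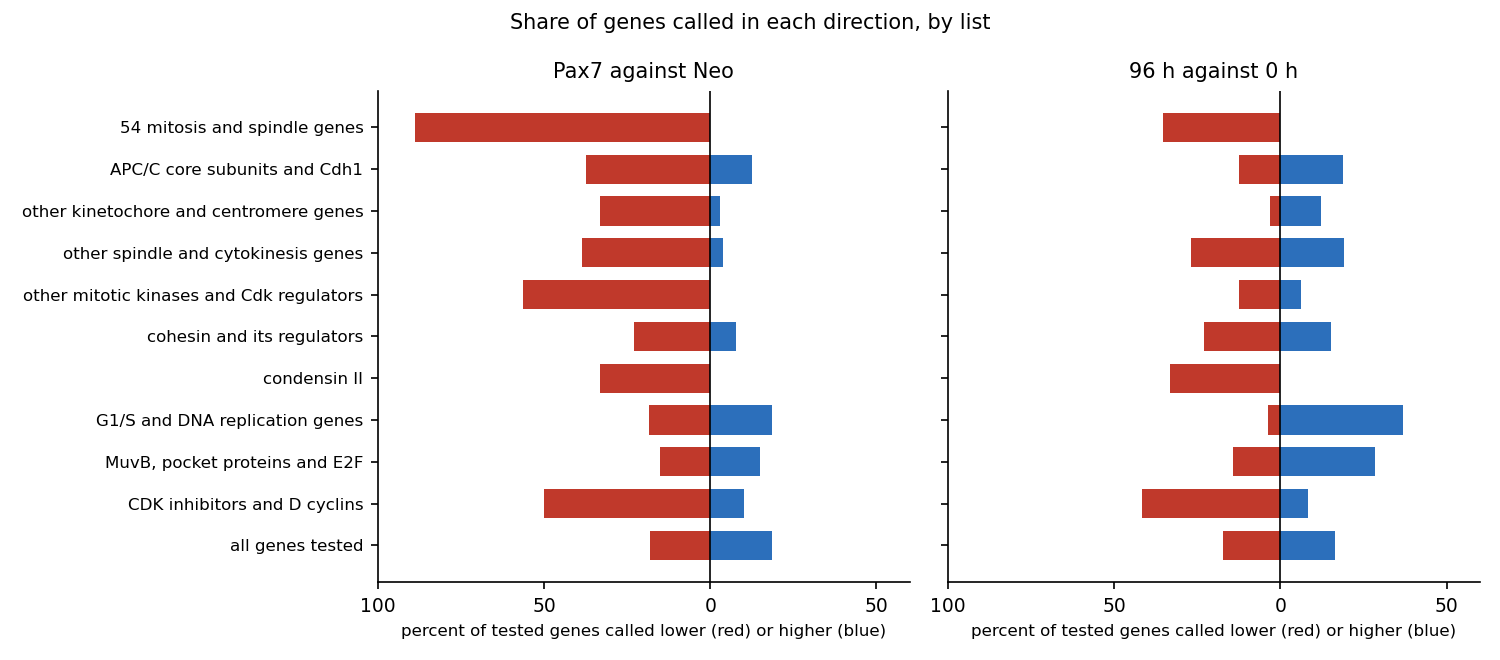
Percent of tested genes called lower (red, to the left) and higher (blue, to the right) in each list and among all genes tested, for Pax7 against Neo and for ER-Pax7 at 96 h against 0 h. The 54 genes have 48 calls lower on the left and 19 on the right and 0 higher, while the G1/S and replication genes have 10 calls higher and 1 lower at 96 h.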

How the data were processed

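RNA-seq was analysed in 16 libraries (6 groups) of ribosome-depleted RNA, read as 50-base pairs. Reads were processed with TopHat, HOMER and edgeR on GRCm38/mm10, per the submitters' processing notes, which give no versions. For ER-Pax7, the authors counted exon reads per gene without strand and scaled each library to a common total, per the file headers, so its unit is a signal (scaled exon reads). For Neo and Pax7, the authors gave FPKM over gene bodies, also without strand, per the file headers. The authors' log2 folds, p-values and FDR were deposited in the same tables and are quoted as theirs.

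The planned edgeR test needs raw counts, and the values are scaled, so limma 3.58.1 (R 4.3.3, trend) was fitted in its place to log2(value / TMM factor + pseudocount). The pseudocount was 1 for scaled exon reads and 0.1 for FPKM, and folds are on that scale. Genes had to reach 1 in 3 ER-Pax7 libraries or 0.1 in 2 Neo or Pax7 libraries. P-values were adjusted over all genes tested (Benjamini-Hochberg, threshold 0.05) in 6 comparisons. An exact permutation test cannot go below p = 0.1 with 3 against 3 or 0.333 with 2 against 2. Alternatives were other scalings, pseudocounts and filters, a replicate block, leaving out each library, and edgeR 4.0.16 and DESeq2 1.42.0 on reads recovered from the ER-Pax7 values. The steps were also run on simulated data with few changed genes and a single fixed spread, a simpler setting than these data. No result here rests on that run.

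The members and lists were chosen with earlier results of these data known. Values per library are given for Top2a, Mki67 and the member of each class with the largest absolute fold in Pax7 against Neo or at 96 h. Hmmr and Cdc25b are given per library outside that rule, and for Smc2 the order of the libraries alone is given. Hmmr and Smc2 were added after their values were seen. Of each other list, the 2 called genes with the smallest adjusted p in each direction are named, apart from 1 that is not reported here. Each promoter window was taken from RefSeq; 44 of 54 members matched.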

Additional observations from a re-analysis of the deposited data

Results flagged for a closer look

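In 3 genes the libraries of the 2 systems lay on opposite sides of their controls. Cdc25b had a log2 fold of 0.062 in Pax7 against Neo, with both Pax7 libraries above both Neo libraries, and of −0.17 at 96 h against 0 h, with all 96 h libraries below all 0 h libraries. Hmmr had −0.20 in Pax7 cells and 0.066 at 96 h, and Smc2 had −0.22 and 0.055, each with groups that did not overlap. Such groups were common: Pax7 libraries lay below both Neo libraries in 36.1% of all genes and above them in 37.8%. The 96 h libraries lay below all 0 h libraries in 23.2% of all genes and above them in 22.7%. The share of all genes on opposite sides in the 2 systems was not counted. The difference between the systems was not tested, since their tables hold different measures and were scaled apart.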

How the results depend on the processing

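No log2 fold of the 54 genes that had been called changed sign under any alternative run. Of the members called lower in Pax7 against Neo (48), library totals left 30, and leaving out 1 library left 26 to 40; the genes called in all (4917) then numbered 2001 to 2928. At 24 h against 0 h (3 members), library totals and a fit of the 2 times alone gave 0, DESeq2 size factors and no filter 1, and leaving out 1 library 0 to 2. At 96 h against 24 h (5 lower, 1 higher), library totals, the 2 times alone and DESeq2 on recovered reads each gave 8 lower, leaving out 1 library gave 3 to 5 lower and 0 to 1 higher, and the genes called in all (1929) numbered 1268 to 1731. From 12 h to 24 h, 26 genes were called in all, 17 with no filter, 16 with the 2 times alone, 89 by DESeq2 and 11 to 31 without 1 library. The 19 members lower at 96 h against 0 h were 13 to 19 without 1 library. The causes were not tested. Where a library was left out of Neo or Pax7, the lone one was assumed to vary like the other group.

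For each gene the mean of the group was subtracted, and the remaining deviations were correlated between libraries of different groups. In ER-Pax7 these deviations correlated at −0.08 to 0.14 between same-numbered libraries. The median was 0.04, against −0.02 for unlike numbers, and 10 of 12 libraries correlated best with their own number. With 2 libraries per group, the values for Neo and Pax7 can only be 0.04 or −0.04 and cannot show a pairing. Whether the numbers pair samples was not tested, and the main fits did not use them. With the replicate block, members called lower numbered 41 in Pax7 against Neo, 5 at 24 h, 22 at 96 h and 8 at 96 h against 24 h, and 54 genes were called from 12 h to 24 h. The member of fewest reads had 1071 in an ER-Pax7 library; how far counting error limits the tests of low members was not tested.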
